A study of Mus musculus with 29 samples.

Results

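The left ventricle (LV) of Rage-/- mice was compared between 12 months (Middle Age, MA) and 21 months (Old). The samples were chosen by genotype and age in their titles, with no use of a measured value, and numbered 10 of the 29 in the series: 4 MA and 6 Old mice. All were female, carried the strain label C57BL/6N, were labelled as null for the receptor RAGE, and were perfused with saline before the heart was frozen. WT mice of the same ages (4 MA and 5 Old) served for comparison, and the Young mice of 10 weeks entered only the shared model. Each mouse gave 1 array on an Illumina MouseWG-6 BeadChip, a slide of bead-bound probes read as fluorescence intensity. Whole ventricle was extracted, so fewer cells of a type and less RNA per cell cannot be told apart. The labels name no litter or RNA batch, and p values then rest on the spread between these mice.

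RAGE, encoded by *Ager*, is a cell surface receptor of the immunoglobulin family that binds glycated proteins, S100 proteins and HMGB1 and signals to NF-kappaB in inflammation. In the ageing heart, cardiomyocytes enlarge and shift between fatty acids and glucose as fuel, fibroblasts lay down collagen, and resident macrophages are in part replaced by cells from the blood. Tissue macrophages make the C1q subunits of complement, and neutrophils carry the RAGE ligands S100A8 and S100A9. No probe carried the name *Ager*. *Adgrf5*, which encodes an adhesion receptor of lung epithelium and endothelium, was above background in 0 of 10 Rage-/- mice, at 4.85 ± 0.13 in MA and 4.80 ± 0.29 in Old (log2 intensity, mean ± SD, n = 4 and 6), against 7.96 to 8.70 in the 9 WT mice of these ages.

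The arrays of the MA and Old mice lay on different BeadChips. All 4 MA Rage-/- mice shared BeadChip D with 1 Old WT mouse, Old Rage-/- mice 1 to 4 lay on BeadChip A with no MA mouse, and Old Rage-/- mice 5 and 6 lay on BeadChip E with 3 Old WT mice. No BeadChip held both Rage-/- groups, so no value within a BeadChip could be had, and slide and age can be told apart only through that 1 Old WT mouse. On BeadChips E and F the median signal of detected probes was 3.82 to 4.86 times the background, against 1.80 to 2.60 times on the 23 arrays of the other 4. Detected probes numbered 9384 to 10553 in MA Rage-/- mice, 9125 to 11864 in Old mice 1 to 4, and 14196 and 13704 in Old mice 5 and 6.

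**Figure D1:**
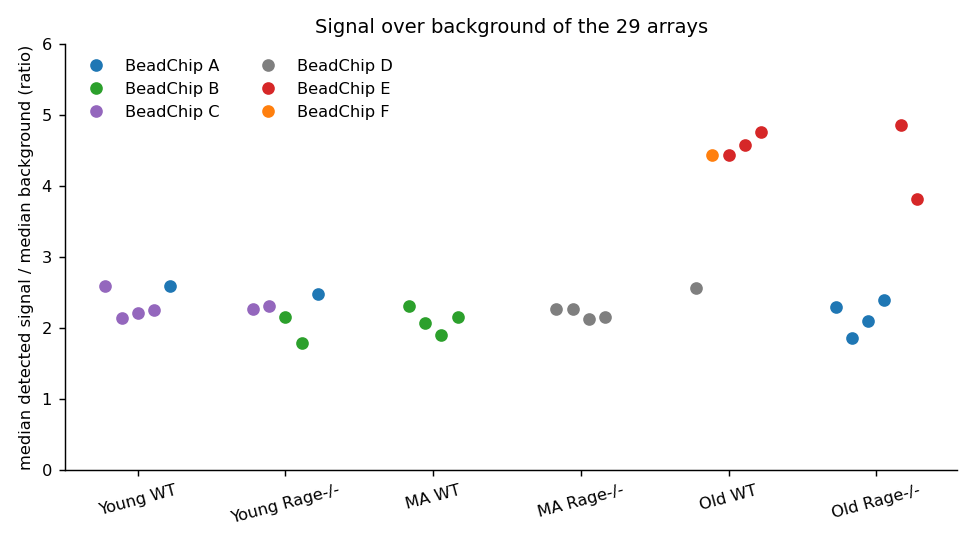
Signal over background, as the ratio of the median intensity of detected probes to that of probes at background, for each of the 29 arrays (points) by group and BeadChip (color). The arrays of BeadChips E and F, among them Old Rage-/- mice 5 and 6, sit between 3.82 and 4.86, and all others between 1.80 and 2.60.

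Expression profiles set the same mice apart. The MA mice correlated with each other at r = 0.957 to 0.975 across the 13277 probes tested (probes are not independent replicates). Old mice 5 and 6 correlated at 0.987 with each other, at 0.875 to 0.949 with the other Old mice and at 0.882 to 0.923 with the MA mice. In Old mouse 2, 2222 probes (16.7%) lay more than 1 log2 unit from the median of the other 9 Rage-/- mice, against 1844 and 1780 in Old mice 5 and 6 and 273 to 797 in the other 7. Old mouse 2 also had the fewest detected probes (9125). Counts of called probes are given with and without these mice where that moved them, as are several of the bounds on folds.

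Between 12 and 21 months 1 of 13277 probes was called in Rage-/- mice (percent called 0.00753), and it was higher in Old mice. The test was limma's, on background-corrected, quantile-normalized log2 intensities, in a model of all 29 arrays with 6 groups and 5 surrogate variables, which are patterns shared by many probes that the groups do not explain. A probe was called at an adjusted p under 0.05. An unadjusted p under 0.05 was reached by 1161 probes (percent called 8.74), 540 higher and 621 lower (4.07 and 4.68). Without the surrogate variables 201 probes were called (percent called 1.51), 89 higher and 112 lower (0.67 and 0.844), of which 200 kept their sign in the adjusted model and 125 reached an unadjusted p under 0.05 there. The call was also made with the Old mice of either BeadChip alone, where limma called 2 probes (mice 1 to 4) and 24 probes (mice 5 and 6). It was lost with BeadChip as a random or a fixed block in limma, in fits without surrogate variables. There 0 probes were called, and 927 and 842 had an unadjusted p under 0.05.

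Whether single mice overlapped gave a description free of any model. In 756 probes (percent called 5.69) all 6 Old mice lay on one side of all 4 MA mice, 375 higher and 381 lower (2.82 and 2.87). Of the 201 probes called without surrogate variables, 147 were among them. Over the 8189 genes taken by their brightest probe, the median difference was −0.01 with the surrogate variables and −0.01 without them. Quantile normalization gives all arrays the same distribution, so a median near 0 was largely set in advance. The median absolute difference per gene was 0.18 with and 0.28 without.

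**Figure D2:**
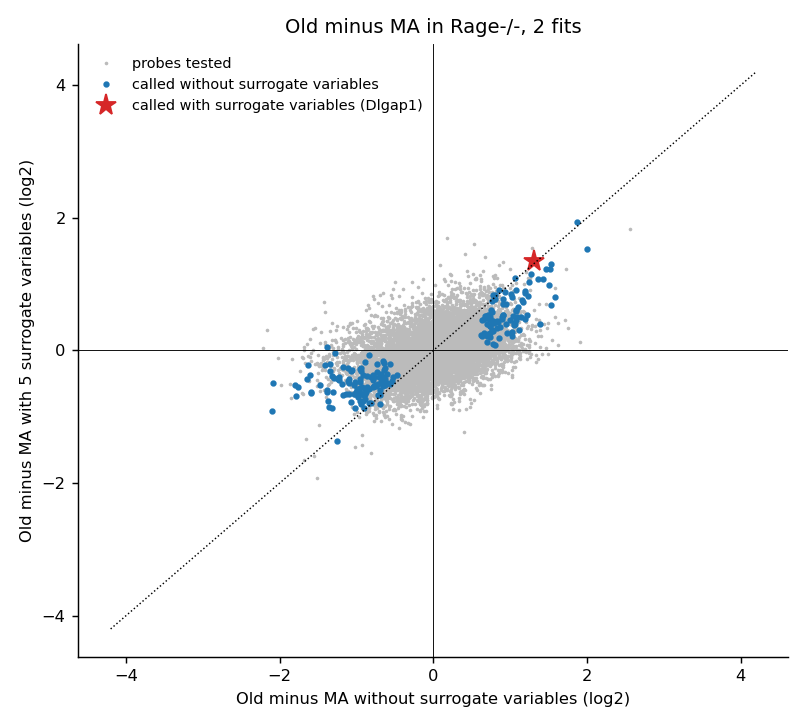
Old minus MA in Rage-/- for each of the 13277 probes, without surrogate variables (horizontal axis, log2) and with 5 of them (vertical axis, log2), the dotted line marking equal values. Of the 201 probes called without surrogate variables (blue), 200 have the same sign on both axes, and *Dlgap1* (star) has 1.31 on one and 1.35 on the other.

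*Dlgap1*, the gene of that call, encodes a scaffold protein of the postsynaptic density. Its log2 intensity was 4.87, 4.79, 4.70 and 4.52 in the MA mice and 6.26, 4.99, 6.35, 6.52, 6.14 and 5.93 in Old mice 1 to 6. All 6 Old mice lay above all 4 MA mice, with Old mouse 2 closest to them. The transcript rose by 1.35 (SE 0.19, adjusted p = 0.00452), from 4.72 ± 0.15 to 6.03 ± 0.55 (SD). It was well above background in 0 of 4 MA and 5 of 6 Old mice, so on the measured scale it was at least 1.02-fold higher in Old mice: the mean of the Old mice was set against the higher of the probe's own signal and the lowest signal of a detected probe on each MA array. Without Old mouse 2 the bound was 1.18-fold. Leaving out single mice of the 2 groups kept the adjusted p between 0.00237 and 0.0119. In the authors' normalized values the difference was 0.20 (adjusted p = 0.0523). Those values are on a variance-stabilized scale, so sizes of difference, here and below, are not like for like. *Dlgap1* was called in 16 of 21 alternatives, with an adjusted p from 0.000291 to 0.64. The other 5 used the authors' values, no background correction, the 2 groups alone, or BeadChip as a random or a fixed block. Fits of the 2 groups alone and with a BeadChip block had no surrogate variables. In WT mice *Dlgap1* differed by 0.83 (SE 0.18, adjusted p = 0.128), and the difference between the changes in the 2 genotypes did not pass (0.52, SE 0.21, adjusted p = 0.365).

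The regions before the gene starts of *Dlgap1*, the called gene, and of *Cyp2b10* and *Fbp2*, described further on, are given from RefSeq (GRCm38.p6), 250 bases before to 50 bases after each start, 5′ to 3′. *Dlgap1* has 2 starts in that table. Both strands were searched for the TATA box (TATAAA), the CCAAT box (CCAAT), the GC box (GGGCGG) and the E box (CACGTG), motifs that share no match here, and matches are in capitals.
Dlgap1 first start (chr17:69968823-69969122, plus strand): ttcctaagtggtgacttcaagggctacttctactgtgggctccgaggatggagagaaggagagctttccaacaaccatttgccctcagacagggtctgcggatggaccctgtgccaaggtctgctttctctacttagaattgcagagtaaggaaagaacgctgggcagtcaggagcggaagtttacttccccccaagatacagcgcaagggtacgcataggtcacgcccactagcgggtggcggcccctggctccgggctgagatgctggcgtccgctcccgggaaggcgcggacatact
Dlgap1 second start (chr17:70561497-70561796, plus strand): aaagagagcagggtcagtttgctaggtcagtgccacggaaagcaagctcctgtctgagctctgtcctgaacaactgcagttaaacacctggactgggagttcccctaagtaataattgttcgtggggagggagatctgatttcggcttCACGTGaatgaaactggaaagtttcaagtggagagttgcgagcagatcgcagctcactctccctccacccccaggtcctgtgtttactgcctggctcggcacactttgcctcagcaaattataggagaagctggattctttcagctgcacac
Cyp2b10 (chr7:25897408-25897707, plus strand): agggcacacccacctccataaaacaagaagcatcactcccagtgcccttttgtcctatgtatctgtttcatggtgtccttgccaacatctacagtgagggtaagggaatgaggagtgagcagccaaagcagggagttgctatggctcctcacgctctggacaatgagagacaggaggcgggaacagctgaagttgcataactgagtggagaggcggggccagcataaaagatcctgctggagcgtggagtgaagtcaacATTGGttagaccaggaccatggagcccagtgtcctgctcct
Fbp2 (chr13:62858351-62858650, minus strand): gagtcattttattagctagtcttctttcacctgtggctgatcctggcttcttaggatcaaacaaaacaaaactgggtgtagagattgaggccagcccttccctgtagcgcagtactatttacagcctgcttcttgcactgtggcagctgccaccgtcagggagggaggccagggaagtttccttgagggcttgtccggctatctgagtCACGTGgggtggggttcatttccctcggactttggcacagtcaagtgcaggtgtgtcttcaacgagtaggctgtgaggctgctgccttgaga
CACGTG, the letters that clock factors and MYC bind, began at position −102 from the second *Dlgap1* start and −42 from the *Fbp2* start. It is present in 7.15% of the 32851 promoters of that length in the table. The letters of the CCAAT box (37.4% of promoters) were found once, on the reverse strand at position 9 from the *Cyp2b10* start, where those of the E box were not. Those of the TATA box (13.6%) and of the GC box (35.7%) were not found in any of the 4 windows. The probes do not say which start was used.

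No other gene was called, so the genes below are values, not changes. WT values are given for only some of them. They are the 12 genes higher and the 12 lower in Old mice with the smallest p among named genes whose mice did not overlap, chosen after their values were seen, and all but *Dlgap1* had an adjusted p of 0.138 or more. The higher ones were *Dlgap1*, *Plac8*, *Cyp2b10*, *Crls1*, *Folr2*, *Efhd1*, *Tlr2*, *C1qb*, *Fbxo40*, *C4a*, *Ube2n* and *Amy2a5*. The lower ones were *Ccdc3*, *Trmt2a*, *Fbp2*, *Igf2*, *Usp36*, *Cir1*, *Gramd1b*, *Popdc2*, *Sobp*, *Slc6a17*, *Mtss1* and *Zxda*.

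*Cyp2b10*, a cytochrome P450 best known as a drug-inducible enzyme of liver, had the highest difference between group means among these. It measured 4.91, 4.97, 5.49 and 5.13 in MA mice and 6.16, 7.86, 7.60, 7.54, 6.82 and 6.76 in Old mice 1 to 6. It was detected in all 6 Old and in 0 of 4 MA mice, and was at least 2.19-fold higher in Old mice on the same bound. That bound was 1.97-fold without Old mouse 2 and 1.73-fold over Old mice 5 and 6. The difference was 1.52 (SE 0.36, adjusted p = 0.241), and the adjusted p without surrogate variables was 0.000708. WT means of *Cyp2b10* went from 5.54 to 6.46 (0.79 in the model, SE 0.35, adjusted p = 0.417). *Plac8*, which encodes a small cysteine-rich protein of several immune and epithelial cells, lay at 4.67 to 4.75 in MA mice and at 5.91, 5.98, 5.63, 5.33, 7.12 and 7.10 in Old mice. Old mice 5 and 6 were the highest, and *Plac8* was detected in 3 of 6 Old mice and at least 1.13-fold higher by the bound over all 6 (1.23, SE 0.26, adjusted p = 0.152, and 0.0216 without surrogate variables). That bound rests on the mice of BeadChip E: over Old mice 1 to 4 the *Plac8* mean was 5.71, under the level of 6 that the bound takes for MA mice, and over Old mice 5 and 6 it was 7.11. Without Old mouse 6 alone no bound above 1 was left. WT means of *Plac8* went from 4.70 to 5.63 (0.17 in the model, SE 0.25, adjusted p = 0.858). The split of the bounds by mouse was chosen after seeing the data.

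*Fbp2* encodes the fructose-1,6-bisphosphatase of muscle, an enzyme of glycogen resynthesis. It measured 10.26, 10.30, 10.08 and 9.94 in MA mice and 9.43, 9.67, 9.69, 8.93, 8.80 and 8.22 in Old mice. The 2 mice of BeadChip E were the lowest, and the 4 of BeadChip A still lay below every MA mouse. The difference was −0.87 (SE 0.20, adjusted p = 0.241), −1.02 without surrogate variables (adjusted p = 0.0267) and −0.68 in the authors' values (adjusted p = 0.0523). *Igf2*, the fetal growth factor, lay between 9.51 and 9.86 in MA mice and between 8.36 and 9.11 in Old mice (−0.80, SE 0.20, adjusted p = 0.284, and 0.0287 without surrogate variables). WT mice gave −0.69 (SE 0.19, adjusted p = 0.205) for *Igf2*. *Ccdc3*, whose product is secreted by vessels and fat, was at 7.20 to 7.52 in MA and at 6.16 to 6.74 in Old mice (−0.87, SE 0.18, adjusted p = 0.138, and 0.0267 without surrogate variables). Its WT means went from 6.94 to 6.01 (−0.57 in the model, SE 0.17, adjusted p = 0.243).

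*Sobp*, a nuclear protein named for binding sine oculis factors, was measured by a pair of probes with the same direction. The brighter one lay at 9.59 to 9.85 in MA mice and at 8.24 to 8.78 in Old mice, and the other at 8.96 to 9.11 and 6.88 to 8.45. Neither probe overlapped between the groups. The differences were −0.68 (SE 0.19, adjusted p = 0.33) and −0.63 (SE 0.30, adjusted p = 0.565), −1.18 and −1.31 without surrogate variables (adjusted p = 0.0199 and 0.0304), and the brighter probe passed in the authors' values (−0.43, adjusted p = 0.0259). *Gramd1b*, a sterol carrier of the endoplasmic reticulum, differed by −0.67 (SE 0.18) with 2 probes alike, the other at −0.66. *Popdc2*, a cyclic AMP-binding protein with a role in cardiac pacemaking, was at −0.48 (SE 0.14, adjusted p = 0.33), and its dimmer probe at −0.08.

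**Figure D3:**
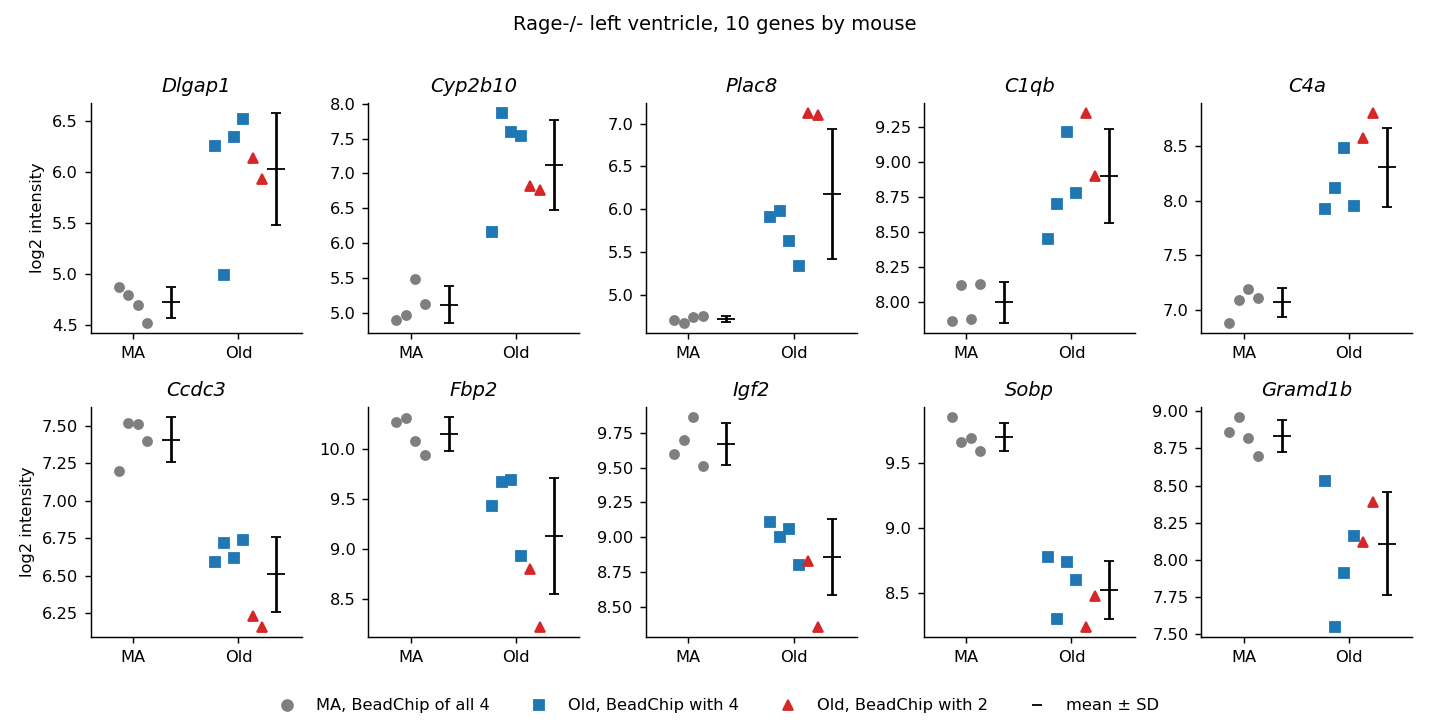
Log2 intensity of 10 genes in each Rage-/- mouse (points, by BeadChip), with mean ± SD beside each group. The groups do not overlap in any panel, *Dlgap1* lying at 4.52 to 4.87 in MA and 4.99 to 6.52 in Old mice, and the mice of the BeadChip with 2 (triangles) are the highest in *Plac8* and the lowest in *Ccdc3*.

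Among the remaining 12 and 12, *Crls1*, the synthase of the mitochondrial lipid cardiolipin, differed by 0.74 (SE 0.18; dimmer probe −0.09) and *Efhd1*, a calcium-binding protein of mitochondria, by 0.74 (SE 0.20). *Efhd1* was detected in 0 of 4 MA and 5 of 6 Old mice and was at least 1.43-fold higher (1.55-fold without Old mouse 2). WT mice gave a like difference for *Efhd1* (0.73, SE 0.20, adjusted p = 0.193). *Fbxo40*, a muscle-specific ubiquitin ligase subunit, lay at 9.42 to 9.85 in MA and in a narrow band of 9.98 to 10.16 in Old mice (0.50, SE 0.14). *Ube2n*, which builds ubiquitin chains of a signaling type, differed by 0.62 (SE 0.18) and *Amy2a5*, a pancreatic amylase, by 0.84 (SE 0.24). On the lower side, *Trmt2a*, a tRNA methyltransferase, differed by −0.61 (SE 0.14) and *Usp36*, a nucleolar deubiquitinase, by −0.54 (SE 0.14). *Cir1*, a corepressor of Notch signaling, was at −0.67 (SE 0.18) with its dimmer probe at −0.11. *Slc6a17*, a neuronal amino acid transporter, was at −0.93 (SE 0.27) and *Mtss1*, a membrane-bending protein, at −0.76 (SE 0.23). Adjusted p was between 0.221 and 0.33 for all of these.

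Several transcripts gave different answers by probe or by model. *Nmrk2* encodes the nicotinamide riboside kinase of muscle, which makes NAD+ from vitamin B3. Its second-brightest probe lay at 5.53, 6.19, 5.40 and 5.53 in MA mice and at 7.55, 7.63, 7.45, 8.07, 6.89 and 7.56 in Old mice, without overlap (1.94, SE 0.35, adjusted p = 0.0506, and 0.00102 without surrogate variables). The dimmest probe gave 1.09 (SE 0.31, adjusted p = 0.33). The brightest probe, which stands for the gene here, pointed the other way, from 7.71 ± 0.46 to 6.48 ± 0.63 (−0.44, SE 0.27, adjusted p = 0.657, and −1.23 without surrogate variables, adjusted p = 0.0369). A direction for *Nmrk2* as a gene cannot be given from these probes.

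A probe of *Ctnnb1*, beta-catenin, had a difference of 1.70 in the model (SE 0.30, adjusted p = 0.0506), but group means 0.18 apart, 8.61 ± 0.75 and 8.79 ± 0.52. The other 3 *Ctnnb1* probes differed by −0.13 to −0.04. A dim probe of *Slc25a20*, the carnitine-acylcarnitine carrier, had −1.23 in the model (SE 0.25, adjusted p = 0.138) and group means that differed by 0.39 in the opposite direction. In both probes the model's value and the group means as measured part by more than 1 log2 unit. Among the 1161 probes with an unadjusted p under 0.05, 1010 (87%) had the same sign without the surrogate variables.

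The complement and macrophage lists had medians above 0 in Old Rage-/- hearts, with members on both sides and none called. The lists described from here on were drawn from general knowledge, but with earlier results of these data known. Each gene was taken with its brightest probe. In all 48 lists, with 698 genes measured, 0 members were called in limma's adjusted test (percent called 0.0122 over all genes). The background is 8.94% of the 8189 genes at an unadjusted p under 0.05 (percent called 3.98 higher and 4.96 lower), 2.87% higher and 3% lower without overlap, and a median of −0.01. Of 14 complement and coagulation genes measured of 26, 12 had a difference above 0, 5 were higher at an unadjusted p under 0.05 and 0 lower, 4 did not overlap, and the median was 0.33. Without surrogate variables 3 of the 14 were called, all higher (percent called 0.635, higher, over all genes), with a median of 0.38.

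*C1qa*, *C1qb* and *C1qc* encode the chains of C1q, which starts the classical complement pathway. *C1qb* was at 7.86, 8.12, 7.88 and 8.13 in MA mice and at 8.45, 8.70, 9.22, 8.78, 9.35 and 8.90 in Old mice (0.77, SE 0.22, adjusted p = 0.33, and 0.0267 without surrogate variables). *C1qa*, the third chain, overlapped between the groups, at 6.46 to 7.60 and 6.54 to 8.08 (0.34, SE 0.34, adjusted p = 0.802). *C1qc* was at 7.29, 7.35, 7.09 and 7.05 in MA mice and at 8.09, 8.23, 8.48, 8.52, 8.85 and 8.11 in Old mice (0.86, SE 0.27, adjusted p = 0.342, and 0.0267). Every Old mouse exceeded every MA mouse in *C1qb* and *C1qc*, on BeadChip A as on BeadChip E. In WT mice the differences with surrogate variables were 0.02 (SE 0.21) for *C1qb* and 0.64 (SE 0.26) for *C1qc*. The difference between genotypes in that model did not pass (adjusted p = 0.257 and 0.828). As measured, both were higher in Old WT mice too. The WT means went from 8.30 to 8.68 for *C1qb*, with overlap between mice, and from 7.38 to 8.49 for *C1qc*, without overlap. The Rage-/- means were 0.90 apart for *C1qb* and 1.19 apart for *C1qc*.

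*C4a* and *C4b* encode near-identical forms of the fourth complement component, and a probe of one may read the other. *C4a* was at 6.88 to 7.19 in MA mice and 7.92 to 8.80 in Old mice, without overlap (1.04, SE 0.30, adjusted p = 0.33, and 0.0199 without surrogate variables), and its dimmer probe differed by 0.91 (SE 0.36). *C4b* was at 7.72 to 8.02 and 7.95 to 8.83 with 2 of 6 Old mice inside the MA range (0.65, SE 0.24, adjusted p = 0.432).

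Of 13 macrophage markers 12 were measured, 10 with a difference above 0, and the median was 0.32 (0.25 without surrogate variables, 0.04 in the authors' values). The 3 C1q chains belong to this list too. *Csf1r*, the receptor that macrophages need for survival, was at 0.04 (SE 0.25, adjusted p = 0.977) and *Lyz2*, lysozyme, at −0.01 (SE 0.28, adjusted p = 0.995), both overlapping and both of a sign that turned between alternatives. The summed level of the 12 was 4660 to 5415 in MA mice and 6160 to 9532 in Old mice (sum of linear intensities). The mean log2 level overlapped more, at 7.33 to 7.58 and 7.35 to 8.01. *Folr2*, the folate receptor of resident macrophages, was not in that list and had a pair of probes, both without overlap. The brighter lay at 5.29, 5.90, 4.87 and 5.29 in MA mice and at 6.30, 6.21, 7.33, 6.53, 6.89 and 6.50 in Old mice, at least 1.55-fold higher (1.55, SE 0.40, adjusted p = 0.314). The other differed by 1.14 (SE 0.32, adjusted p = 0.33, and 0.0267 without surrogate variables). The part of the macrophage markers in the complement values was not tested.

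Of 18 chemokines and cytokines measured of 25, 17 lay above 0, 4 at an unadjusted p under 0.05, with 2 not overlapping and a median of 0.32. *Ccl8*, a chemokine that attracts leukocytes, was at 5.49, 5.97, 5.80 and 5.50 in MA mice and at 6.55, 7.06, 7.47, 6.70, 7.18 and 7.74 in Old mice. It was detected in 6 of 6 Old and 1 of 4 MA mice (1.07, SE 0.38, adjusted p = 0.416, and 0.0199 without surrogate variables). *Csf1*, the growth factor of macrophages, overlapped between the groups (0.92, SE 0.27, adjusted p = 0.33). In the authors' values the median of the list was 0.06, and that of the complement list 0.12.

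RAGE ligands and partners were measured for 17 of 23 list genes, which did not include *Hmgb1* and *S100b*. Of these 14 lay above 0, 4 higher and 0 lower at an unadjusted p under 0.05, and the median was 0.37 (0.20 without surrogate variables, 0.10 in the authors' values). *S100a8* was at 5.82, 6.48, 4.71 and 4.67 in MA mice and at 6.51, 7.21, 6.75, 7.37, 8.80 and 11.19 in Old mice. It was highest in the mice of BeadChip E, and the lowest Old mouse, at 6.51, stood just above the highest MA mouse, at 6.48 (1.83, SE 0.78, adjusted p = 0.502). Its partner *S100a9* overlapped, at 4.52 to 5.42 and 4.65 to 9.60 (1.22, SE 0.62, adjusted p = 0.589), and was at least 1.56-fold higher over all 6 Old mice. Without Old mouse 6 the *S100a9* bound was 1.04-fold, and without Old mouse 2 it was 1.81-fold. Over Old mice 1 to 4, with a mean of 5.64, none above 1 was left. The summed level of the 3 neutrophil markers measured of 10 was 78 to 174 in MA mice, 160 to 276 in Old mice 1 to 4, and 685 and 3151 in Old mice 5 and 6. *Mpo* and *Ly6g*, which define neutrophils, had no probe among those tested. As measured, WT means were higher in Old mice too, with overlap between mice. They went from 6.59 to 7.87 for *S100a8* and from 5.69 to 6.99 for *S100a9*. The model gave −0.86 (SE 0.75) and −0.58 (SE 0.60) in WT mice, so both WT signs turned with the surrogate variables.

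*Tlr2*, a receptor for bacterial lipoproteins that shares ligands with RAGE, lay at 4.84 to 5.40 in MA and at 5.83 to 6.86 in Old mice and was at least 1.23-fold higher (0.76, SE 0.21, adjusted p = 0.33, and 0.0327 without surrogate variables). Its WT means went from 5.34 to 6.42 (0.59 in the model, SE 0.21, adjusted p = 0.294). *S100a1*, the calcium sensor of cardiomyocytes, was at 11.67, 11.35, 11.50 and 11.71 in MA and at 11.74 to 13.11 in Old mice, without overlap and highest on BeadChip E (0.44, SE 0.17, adjusted p = 0.459). WT mice gave 0.48 (SE 0.16, adjusted p = 0.284).

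Of 23 interferon-induced genes measured of 34, 19 lay above 0, with 2 higher and 1 lower at an unadjusted p under 0.05 and a median of 0.30. This median was 0.05 in the authors' values and 0.29 without surrogate variables. *Oasl2*, an antiviral sensor, differed by 1.03 (SE 0.38, adjusted p = 0.432) and *Ifitm3*, a membrane protein that blocks viral entry, by 0.66 (SE 0.25, adjusted p = 0.446). Both overlapped between the groups, and the group means were 0.28 and 0.06 apart. The 17 antigen presentation genes had a median of −0.03, and of 0.45 without surrogate variables.

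**Figure D4:**
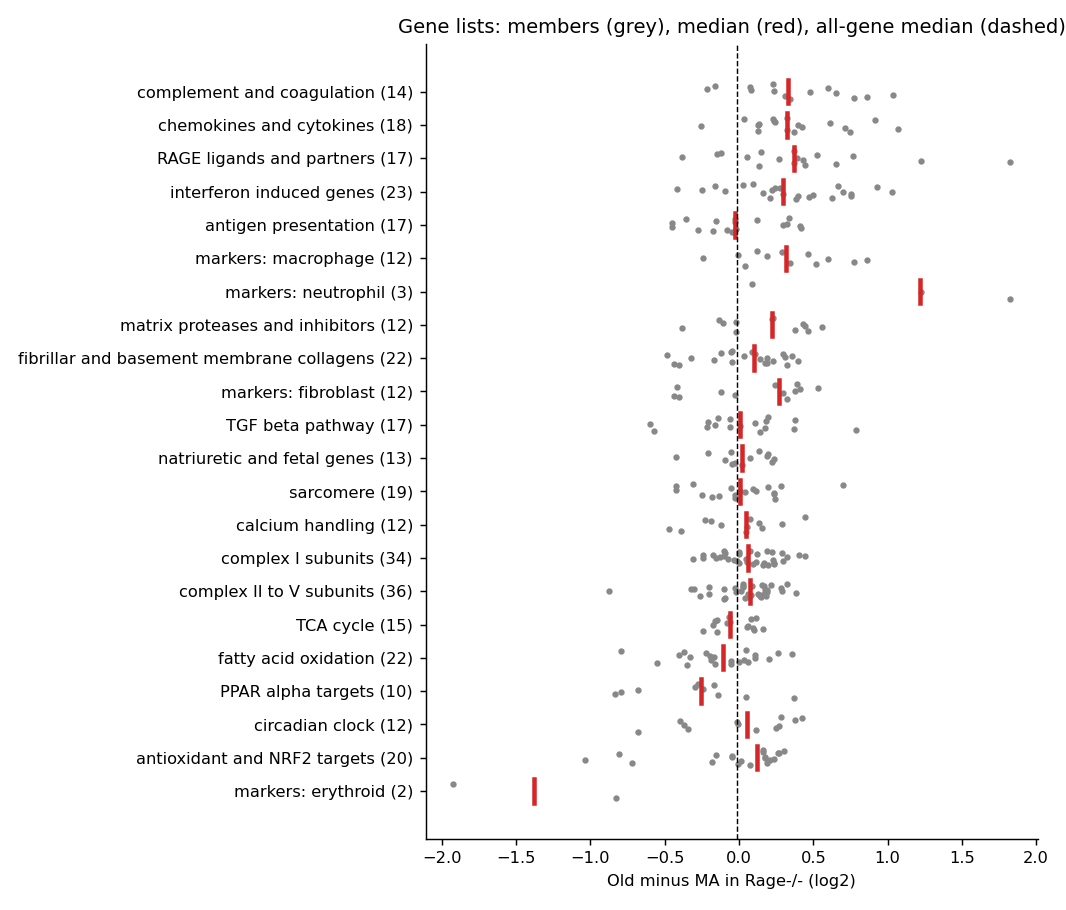
Old minus MA in Rage-/- with 5 surrogate variables (log2) for each measured member (grey points) of 22 gene lists, the number measured in parentheses, with the list median (red) and the median of all 8189 genes (dashed, −0.01). Complement (0.33), chemokines (0.32), RAGE ligands (0.37) and macrophage markers (0.32) lie to the right, and sarcomere (0.01) and natriuretic genes (0.02) at the line.

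Collagen genes had a median near that of all genes. The 22 collagen and basement membrane genes measured of 30 had a median of 0.10 (−0.02 without surrogate variables), 13 above 0, with 0 of them below an unadjusted p of 0.05. *Col1a1*, a chain of type I collagen, differed by 0.32 (SE 0.53) and *Col3a1*, the chain of type III, by −0.44 (SE 0.46). The 2 members of smallest p were *Col18a1* (−0.32, SE 0.20, adjusted p = 0.659) and *Dcn*, decorin (0.30, SE 0.19, adjusted p = 0.667). Among 12 proteases and inhibitors the median was 0.23. *Timp2*, an inhibitor of matrix metalloproteinases, differed by 0.44 (SE 0.17, adjusted p = 0.454) and *Timp1* by 0.56 (SE 0.37, adjusted p = 0.688), the latter ranging from 6.24 to 9.71 among Old mice. Fibroblast markers (12 of 12 measured) had a median of 0.27, with *Mfap5*, a microfibril protein, at 0.53 (SE 0.22, no overlap) and *Pi16* at −0.41 (SE 0.17).

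Sarcomere, stress and calcium genes were near 0. The 19 sarcomere genes had a median of 0.01, with *Myom2*, an M-band protein, at −0.43 (SE 0.19, adjusted p = 0.538) and *Pdlim5*, a Z-disc protein, at 0.70 (SE 0.34, adjusted p = 0.575). The 13 natriuretic and fetal genes had a median of 0.02. *Nppa*, atrial natriuretic peptide, measured 13.04 ± 0.49 in MA and 13.53 ± 0.48 in Old mice (0.02, SE 0.51, adjusted p = 0.996) and *Nppb*, B-type natriuretic peptide, 12.84 to 13.15 and 12.51 to 13.66 (−0.05, SE 0.40, adjusted p = 0.985). *Myh7*, the slow myosin of the fetal ventricle, differed by 0.22 (SE 0.45, adjusted p = 0.915) with group means 1.01 apart. The members of smallest p were *Ankrd1*, a stress-induced titin-binding protein (−0.43, SE 0.21, adjusted p = 0.584), and *Actc1*, cardiac actin (0.24, SE 0.15, adjusted p = 0.657). Among 12 calcium handling genes *Ryr2*, the calcium release channel of the sarcoplasmic reticulum, was at −0.39 (SE 0.16, adjusted p = 0.476). With errors of this size a missed threshold does not show equal levels.

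With surrogate variables, genes of fatty acid use had medians below 0, and that of oxidation turned without them. Of 22 fatty acid oxidation genes measured of 25, 9 were above 0, 4 lower and 1 higher at an unadjusted p under 0.05, and the median was −0.11, against 0.07 without surrogate variables. The summed level of the 22 (sum of linear intensities) was higher in every Old mouse, at 83708 to 88632 in MA and 91692 to 120013 in Old mice. Their mean log2 level overlapped, at 10.62 to 10.74 and 10.51 to 10.85. Of 10 PPAR alpha targets measured of 16, 2 were above 0 and the median was −0.26. It was −0.09 without surrogate variables and −0.15 in the authors' values. *Acot1* and *Acot2* encode the cytosolic and mitochondrial acyl-CoA thioesterases, which are close paralogs. *Acot1* lay at 9.57 to 9.84 in MA mice and 8.56 to 9.54 in Old mice, without overlap (−0.84, SE 0.30, adjusted p = 0.422), with its dimmer probe at −0.16. *Acot2* overlapped (−0.79, SE 0.26, adjusted p = 0.351), with its dimmer probe at 0.49. *Acadl*, the long-chain acyl-CoA dehydrogenase, was at −0.55 (SE 0.21, adjusted p = 0.454).

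Respiratory chain genes differed little, with both signs. The 34 complex I genes had a median of 0.06 and the 36 genes of complexes II to V one of 0.07. *Ndufc1* was at 12.93 to 13.09 in MA and at 13.35 to 13.59 in Old mice (0.40, SE 0.16, adjusted p = 0.454) and *Ndufb6* at 12.25 to 12.58 and 12.71 to 13.08 (0.32, SE 0.14, adjusted p = 0.508), both complex I subunits without overlap. *Cox6a1*, a subunit of cytochrome oxidase, was at 0.39 (SE 0.15, adjusted p = 0.463) and *Cox6c*, another, at −0.88 (SE 0.37, adjusted p = 0.502), with Old mouse 6 at 9.63 and the others at 11.79 to 12.23. In the authors' normalized values 5 probes were called, of which 1 was higher and 4 lower. Those were *Atp5l*, the g subunit of ATP synthase (0.34), *Coq5*, a methyltransferase of ubiquinone synthesis (−0.37), *Rps24*, a ribosomal protein (−0.56), *Sobp* and *Fitm2*, each at an adjusted p of 0.0259. In the main model the same probes of *Atp5l*, *Coq5* and *Rps24* gave 0.32, −0.45 and −0.47 (adjusted p = 0.538, 0.33 and 0.33). The other 2 *Coq5* probes, both dimmer, gave −0.24 and −0.03 there. Those of *Rps24*, dim at means of 5.52 and 5.59, pointed the other way, at 0.16 to 0.86. Of the 20 antioxidant genes, 3 were lower at an unadjusted p under 0.05 with a list median of 0.12. *Cat*, catalase, was at −0.81 (SE 0.25, adjusted p = 0.33), though its group means differed by 0.23 the other way, and *Txn1*, thioredoxin, at −1.04 (SE 0.40, adjusted p = 0.454).

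The change from 12 to 21 months differed between genotypes in 20 of 13277 probes (percent called 0.151), 5 with a higher and 15 with a lower change in Rage-/- mice than in WT mice (0.0377 and 0.113). This interaction was tested directly, and 1480 probes had an unadjusted p under 0.05 (percent called 11.1). In all 20 the adjusted change had opposite signs in the 2 genotypes. Among the 14 with a gene name the measured means did so in 7, the WT sign having turned with the surrogate variables in 4 and the Rage-/- sign in 3. MA WT and MA Rage-/- mice lay on different BeadChips, and slide and genotype cannot be told apart among them. The count was 0 without surrogate variables, and also 0 with BeadChip as a random block, fitted without them. It was 0 with a replicate block, and 0 without MA Rage-/- mouse 3 or without Old WT mouse 2. It was 9 without Old Rage-/- mouse 2, and 278 with only the Old Rage-/- mice of BeadChip A. Of the 20 probes 14 had a gene name and 9 of these were the brightest of their gene.

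*Fbp2* was lower in Old Rage-/- mice as given above, while its level in WT mice was 9.50, 9.26, 9.99 and 9.68 in MA and 9.96, 9.34, 9.48, 9.22 and 9.26 in Old mice 2 to 6. The adjusted change was −0.87 (SE 0.20) in Rage-/- and 0.37 (SE 0.19) in WT mice, a difference of −1.24 (SE 0.23, adjusted p = 0.034). As measured, the WT means of *Fbp2* went from 9.61 to 9.45, a difference of −0.16, so the sign of the WT change turned with the surrogate variables, and the difference between genotypes as measured was −0.87. *Fbp2* was called in 20 of 31 alternatives, more than any other of the 9 genes, with an adjusted p from 0.00685 to 1. At 12 months 3 of 4 Rage-/- mice already lay above every WT mouse.

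*Trim30a*, an interferon-induced regulator of inflammatory signaling, was at 5.45, 5.22, 5.04 and 4.95 in MA Rage-/- mice and at 6.06, 4.68, 5.83, 5.64, 6.97 and 7.23 in Old Rage-/- mice. In WT mice it was at 5.73 to 6.94 in MA and 5.77 to 6.86 in Old. The changes of 1.34 (SE 0.25) and −0.29 (SE 0.24) differed by 1.63 (SE 0.28, adjusted p = 0.0322). Within Rage-/- mice alone it did not pass (adjusted p = 0.0679), and the bound of at least 1.05-fold higher rests on Old mice 5 and 6 (mean 7.10), since Old mice 1 to 4 had a mean of 5.55 and Old mouse 2 lay below every MA mouse. As measured, *Trim30a* was higher in Old than in MA mice of both genotypes, by 0.90 in Rage-/- and by 0.40 in WT mice (6.09 to 6.49), so the sign of the WT change turned with the surrogate variables and the difference as measured was 0.50. A dimmer probe of *Trafd1*, an inhibitor of innate immune signaling, had the same sign (1.34, SE 0.25, adjusted p = 0.0351), but its other 2 probes differed between genotypes by 0.22 and 0.46 without passing.

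*Srr*, which encodes serine racemase, was at 12.33, 12.44, 12.56 and 12.43 in MA and at 11.51, 11.12, 12.09, 11.34, 10.35 and 10.30 in Old Rage-/- mice. The means were 1.32 apart, whereas the model gave −0.38 (SE 0.14) in Rage-/- and 0.49 (SE 0.14) in WT mice, a difference of −0.87 (SE 0.16, adjusted p = 0.034). WT mice on the measured scale were lower too, from 11.27 to 12.60 in MA and from 10.85 to 12.18 in Old mice, the highest being the one on BeadChip D. *Zxda*, a zinc finger protein, had the same form, with MA mice at 8.85 to 9.49 and Old mice at 5.96 to 8.54 (−0.55, SE 0.17, and a genotype difference of −0.92, SE 0.19, adjusted p = 0.0489). The sign of the WT change in both turned with the surrogate variables, as in *Trim30a* and *Fbp2*.

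*Rab18*, a GTPase of lipid droplets, gave changes of −0.59 (SE 0.22) and 0.80 (SE 0.21), a difference of −1.39 (SE 0.24, adjusted p = 0.0322). Its Rage-/- means differed by 0.28 in the opposite direction, with Old mouse 2 at 4.66 and the other Old mice at 6.72 to 8.15. In WT mice *Rab18* was at 4.60 to 7.24 in MA and 7.88 to 8.39 in Old. *Ssbp1*, the single-stranded DNA-binding protein of mitochondria, lay at 8.59 to 9.23 in MA and 7.98 to 8.90 in Old Rage-/- mice and at 7.67 to 8.51 and 8.40 to 9.20 in WT mice (−1.22, SE 0.23, adjusted p = 0.0351). *1110038F14Rik*, a gene known only by a clone name, lay at 8.23 to 8.57 in MA and 7.42 to 7.93 in Old Rage-/- mice, without overlap (−1.36, SE 0.26, adjusted p = 0.0351). *Armcx2* (−0.76, SE 0.15, adjusted p = 0.047) and *Lypd2* (1.27, SE 0.25, adjusted p = 0.0385) completed the 9 genes. *Lypd2* was detected in 1 of 10 Rage-/- mice. Its means as measured differed by 0.17 in Rage-/- mice and by −0.97 in WT mice (6.70 to 5.73).

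The other 4 named probes were not the brightest of their gene, and other probes of the same genes were not called. *Nme7*, a nucleoside diphosphate kinase of cilia, had a probe without overlap at 9.40 to 9.76 and 8.39 to 9.24 (genotype difference −1.13, SE 0.22, adjusted p = 0.0351), and its other 5 probes differed between genotypes by −0.48 to 0.88. *Fitm2*, which helps to form lipid droplets, had a probe at 11.55 to 11.74 in MA and 10.77 to 11.25 in Old Rage-/- mice (−0.73, SE 0.14, adjusted p = 0.0351), and its other 2 gave −0.11 and −0.02. *Rab5a*, a GTPase of early endosomes, had a probe with −1.59 (SE 0.29, adjusted p = 0.034) and 2 others at −0.19 and 0.23. A probe of *Nfatc3*, a calcineurin-regulated transcription factor, had 1.39 (SE 0.29, adjusted p = 0.0489) but was detected in 0 of 10 Rage-/- mice. Its means as measured differed by −0.14 in Rage-/- mice and by −1.72 in WT mice (6.83 to 5.11). The Rage-/- sign of this probe turned with the surrogate variables, as did that of the *Rab5a* probe (0.29 as measured).

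**Figure D5:**
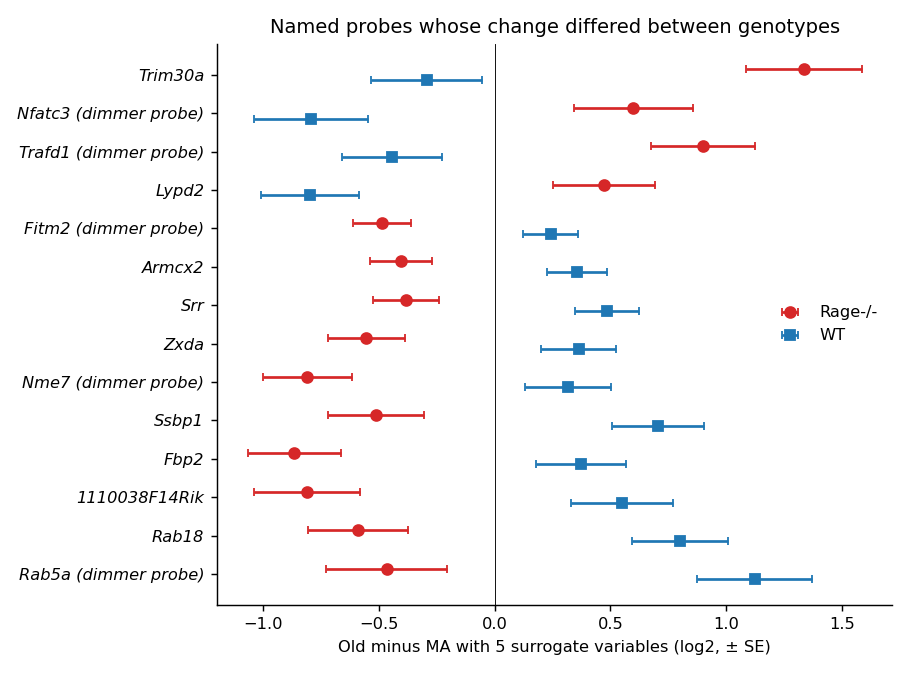
Change from MA to Old with 5 surrogate variables (log2, bars ± SE) in Rage-/- (circles) and WT mice (squares) for the 14 named probes whose change differed between genotypes. *Fbp2* is at −0.87 and 0.37, and *Trim30a* at 1.34 and −0.29.

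WT mice had 2 probes called between the same ages (percent called 0.0151), both lower, and 1459 at an unadjusted p under 0.05 (percent called 11). The list medians in WT mice, beside those in Rage-/- mice, were −0.01 and 0.33 for complement, 0.00 and 0.32 for chemokines, −0.17 and 0.37 for RAGE ligands, −0.21 and 0.30 for interferon-induced genes and 0.01 and 0.32 for macrophage markers. In the same order they were 0.27 and 0.27 for fibroblast markers, 0.31 and 0.58 for T cell markers, and −1.35 and −1.38 for erythroid genes. Collagen genes had 0.23 and 0.10. All these medians come from the model with surrogate variables, without which 3986 probes were called in WT mice. WT list medians without surrogate variables were not computed. For *S100a8* and *S100a9*, given above, the WT sign turned with the surrogate variables. The medians were not tested against each other, and the comparisons share no mouse.

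Markers of other cell types varied among the mice of a group. The 7 atrial markers measured of 8 had a summed level of 7230 to 18375 in MA and 11076 to 44896 in Old mice. *Sln*, sarcolipin of atrial muscle, was at 4.37 and 4.51 in MA mice 1 and 2 and at 4.36 in Old mouse 4, and at 8.59 to 11.87 in the other 7 Rage-/- mice (0.13, SE 1.77, adjusted p = 0.992). The 2 erythroid genes measured, *Hba-a1* (−0.83, SE 0.72) and *Alas2* (−1.92, SE 0.73, adjusted p = 0.454), had a summed level of 6221 to 13843 in MA and 1690 to 13498 in Old mice. Of 12 T cell markers 4 were measured, all 4 above 0 and 1 without overlap, with a median of 0.58 (0.13 without surrogate variables, 0.07 in the authors' values). The 9 ventricular cardiomyocyte markers measured of 10 were detected in all 10 mice, with a summed level of 147559 to 155930 in MA and 108642 to 157507 in Old mice, lowest in Old mice 5 and 6. Of 10 B cell and 10 adipocyte markers, 0 had a probe among those tested.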

How the data were processed

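RNA from the left ventricle of 29 female mice was measured on Illumina MouseWG-6 BeadChips. The authors exported unnormalized intensity values with GenomeStudio 2011.1, and the deposited detection score beside each intensity rises with signal, so it was read as 1 minus the detection p. The authors also deposited log2 values made with lumi in R 4.0.2, by variance stabilization and robust spline normalization, used here as an alternative. The aligner and build behind the probe annotation are not given in the sources used here.

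Intensities were corrected and quantile-normalized with neqc (offset 16) in limma 3.58.1 (R 4.3.3). Of 45281 probes, 13277 with a detection p under 0.01 in 25% of arrays were tested, 11504 with 1 gene name, 6 with several and 1767 with none. limma fitted 6 groups and 5 of 7 estimated surrogate variables over 29 arrays (18 residual degrees of freedom), with Benjamini-Hochberg adjustment over all probes. The fit was tested on simulated data. A gene was read by its brightest probe. The rule named up to 12 called, non-overlapping genes each way, members by smallest p in a list, and called genes of the genotype difference. Further genes were named after their values were seen. The members and lists were chosen with earlier results of these data known. The number of arrays limits precision.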

Additional observations from a re-analysis of the deposited data

Results flagged for a closer look

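Of 176 groups of MA or Old Rage-/- mice, 2 for each of the probes named, 11 (6.25%) held a single mouse apart from the rest by Dixon's test, where chance gives about 1 in 20. Old mouse 2 was low in Usp36 (6.05, the others 6.56 to 6.76), Efhd1 (5.94, the others 6.50 to 6.82) and Pdlim5 (7.19, the others 9.48 to 10.32). Old mouse 6 was low in Cox6c (9.63, the others 11.79 to 12.23) and high in the Ctnnb1 probe described above (9.77, the others 8.41 to 8.82). MA mouse 1 was high in Coq5 (11.46, the others 10.99 to 11.02) and low in Fbxo40 (9.42, the others 9.78 to 9.85). MA mouse 2 was high in the second Nmrk2 probe (6.19, the others 5.40 to 5.53) and in the third (5.30, the others 4.64 to 4.71). MA mouse 3 was low in Ndufc1 (12.93, the others 13.08 to 13.09), and MA mouse 4 high in Csf1r (7.27, the others 6.42 to 6.53).

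The change from MA to Old differed between Rage-/- and WT mice by limma's interaction test in 14 named probes. In the adjusted model the change was higher in Rage-/- mice by 1.63 in Trim30a, 1.34 in Trafd1, 1.27 in Lypd2 and 1.39 in Nfatc3. Lypd2 and Nfatc3 were near background in Rage-/- mice. The differences were −1.24 in Fbp2, −1.13 in Nme7, −0.73 in Fitm2, −1.36 in 1110038F14Rik and −0.92 in Zxda. They were −0.76 in Armcx2, −1.39 in Rab18, −0.87 in Srr, −1.22 in Ssbp1 and −1.59 in Rab5a.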

How the results depend on the processing

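Between MA and Old Rage-/- mice limma called 5 probes in the authors' values, 0 without background correction and 201 without surrogate variables. Also without surrogate variables, it called 2 in the 2 groups alone, 0 with BeadChip as a random and 0 as a fixed block. With detection in 75% of arrays it called 0, but Dlgap1 was not among the probes tested there. It called 2 with the 4 Old mice of 1 BeadChip and 24 with the 2 of the other. Leaving out single mice gave 1 to 5 probes (5 without Old mouse 1, 3 without MA mouse 1 or Old mouse 5, 2 without Old mouse 2), Dlgap1 among them each time. The count was 1 with 7 surrogate variables and without the detection filter.

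The replicate numbers do not pair the mice: same-numbered MA and Old mice deviated together at r = 0.0565, 0.11, 0.241 and −0.0228. With a replicate block 1 probe was called in Rage-/- mice and 0 for the genotype difference. That difference gave 34 probes without background correction and 0 without surrogate variables. Also without surrogate variables, it gave 0 in the compared groups alone, 0 with BeadChip as a random and 1 as a fixed block. It gave 278 and 7 with the 4 or 2 Old mice of a BeadChip (chosen after seeing the data), and 0 to 22 without single mice: 0 without MA Rage-/- mouse 3 or Old WT mouse 2, 1 without Old WT mouse 4 or 6, 3 without Old Rage-/- mouse 5, 8 without MA Rage-/- mouse 4, 9 without Old Rage-/- mouse 2 or Old WT mouse 5, 11 without MA Rage-/- mouse 1 or Old WT mouse 3, and 13 without Old Rage-/- mouse 6. In WT mice the count was 20 in the authors' values, 3986 without surrogate variables, 0 with all 7 (added after seeing the data), and 0 to 57 without single mice, the 57 without MA WT mouse 1.

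Some single genes turned sign, and the cause was not tested. The fits with a BeadChip block had no surrogate variables here too. With BeadChip as a fixed block the values were Hba-a1 2.29, Rab18 1.17 (genotype difference 2.06), Ndufc1 −0.033, Ryr2 0.011, Col3a1 0.29, Nfatc3 −0.62 (difference −0.55), Alas2 1.25, Nppb 0.41, Col18a1 0.018, Dcn −0.50, Rab5a 0.39, 1110038F14Rik 0.091, Myh7 −0.62, Slc25a20 0.77 and Nppa −0.56. As a random block they were Rab18 0.22, Nfatc3 −0.067, Nppb 0.13, Dcn −0.042, Rab5a 0.19, Cat 0.035 and Slc25a20 0.40. Without surrogate variables, in all arrays and in the groups alone, they were Rab18 0.28, Nfatc3 −0.14, Nppb 0.085, Dcn −0.10, Rab5a 0.29, Cat 0.23 and Slc25a20 0.39. With the 2 Old mice of one BeadChip they were Hba-a1 1.13, Col1a1 −0.0063, Dcn −0.24, Sln −0.89, Myh7 −0.23, Timp1 −0.18 and Nppa −0.81, and with the other 4 Nppb 0.0033. In the authors' values they were Nppb 0.18, Sln −0.71 and Nppa −0.20. Sln was −1.35 and Nppa −0.39 with 7 surrogate variables, −0.95 and −0.37 without background correction, −0.55 and −0.14 with detection in 75% of arrays, and −0.90 and −0.20 with a replicate block. Nppb was 0.25 without the detection filter. Csf1r, at 0.04, was −0.035 in the authors' values and without background correction, −0.051 with detection in 75% of arrays, −0.037 without the detection filter, −0.00072 with a replicate block and −0.031 with 4 Old mice. Lyz2, at −0.01, was 0.037 in the authors' values, 0.026 without background correction, 0.060 without surrogate variables in both fits, 0.077 with 7, 0.20 with a fixed block and 0.010 with 2 Old mice. Without single mice Csf1r ran from −0.15 to 0.23, Lyz2 from −0.25 to 0.097, Hba-a1 from −1.17 to 0.014, Nppb from −0.24 to 0.12, Sln from −2.03 to 1.96, Myh7 from −0.27 to 0.49 and Nppa from −0.49 to 0.36.

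Low signal over background on 4 of the 6 BeadChips limits dim probes, for which folds are bounds.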
